A study of Mus musculus with 41 samples.

Results

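Early induction of Rhox10 covered 12 of the 41 samples of the series, all of them iSLAM-seq libraries of cultured mouse germline stem (GS) cells at 0.5, 1 or 2 h. Of these, 6 libraries carried Rhox10-ERT2-mCherry, a fusion that responds to 4-hydroxytamoxifen (Rhox10 libraries). The other 6 carried the ERT2-mCherry empty vector (Ctrl libraries), with 2 libraries per vector and time. Times count hours after treatment in both vectors, so Ctrl libraries past 0 h are of treated cells. The Rhox10 minus Ctrl difference was averaged over the 3 times and set against the same difference at 0 h, where each vector again had 2 libraries. Every one of these libraries, Ctrl included, came from C57BL/6 GS cells of neonatal testis origin in which an shRNA lentivirus had knocked down endogenous Rhox10. The vectors were delivered by lentivirus, and no promoter is named for them. The labels call the 2 libraries of a group biological replicates without naming separate cultures or animals, so p-values measure the spread between these libraries, which may be technical.

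RHOX10 is a homeobox transcription factor encoded in the reproductive homeobox cluster on the X chromosome and known for its role in the formation of spermatogonial stem cells. The ERT2 domain, a modified ligand-binding domain of the estrogen receptor, holds a fused protein in the cytoplasm until 4-hydroxytamoxifen lets it enter the nucleus, so induction moves existing protein rather than raising its mRNA. Immediate-early genes such as Fos, Jun and Egr1 are switched on within minutes by growth factor signalling and make unstable mRNAs, which lets their levels fall quickly once transcription slows.

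Levels are given in CPM, counts scaled to a common library size, in the order of the 2 replicates. A difference is the log2 ratio of Rhox10 to Ctrl libraries, a change is that difference less the difference at 0 h, and a gene was called when its edgeR adjusted p was under 0.05 among 20642 genes tested. The 12 early libraries held 9751514 to 12645845 counts. Ctrl replicate 2 at 0.5 h stood apart. Among 7968 genes of at least 20 CPM on average, 112 were under 0.25 times the median of the other Ctrl libraries in it, against 0 to 14 in each of the other 23 libraries. A chi-square test between its counts and those of its partner gave 26.6 per degree of freedom, against 2.61 to 4.57 in the other 11 pairs. Since all groups share 1 estimate of the spread, this library also weighs on comparisons that do not use it, and counts of calls are given with and without it. All 11 germ cell markers in the table were detected, with summed levels of 2360 to 2610 CPM in the early Rhox10 libraries and 2400 to 2990 CPM in the early Ctrl libraries. The summed levels of 12 fibroblast and feeder cell markers were 2630 to 3040 CPM and 1690 to 2450 CPM. At 0 h these fibroblast sums were already 3160 to 3180 CPM in Rhox10 and 2220 to 2360 CPM in Ctrl libraries. Fewer cells of a type and less RNA per cell cannot be told apart in bulk samples, and the part of these markers in the results was not tested. No counts were found in the 16 libraries of 0 to 2 h for Hsd3b1, Insl3 and Lhcgr (Leydig), Amh (Sertoli) and C1qa (macrophage). Other members of these lists had counts. The 6 Leydig cell markers summed to 8.04 to 14.1 CPM in early Rhox10 and 8.95 to 17.1 CPM in early Ctrl libraries. The 10 endothelial and macrophage markers summed to 41.2 to 56 CPM and 55.6 to 70.1 CPM. These cell types are thus not shown to be absent.

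The mouse Rhox10 gene lies on the plus strand of chromosome X (GRCm38 38066475 to 38071691, ENSMUSG00000053909), and the table counts its reads in 1 entry, which does not separate the introduced fusion from the endogenous gene. Rhox10 was at 38.5 and 35.7 CPM in the Rhox10 libraries at 0 h. It was at 40.5 and 46.7 CPM at 0.5 h, 35.3 and 34.0 CPM at 1 h, and 36.1 and 37.1 CPM at 2 h. In the Ctrl libraries it ran from 0.202 to 2.42 CPM over the same times. The Rhox10 libraries were thus above every Ctrl library at every time, and their levels at 0 h lay within the range of the later times. The early difference was 5.14 on the log2 scale (SE 0.245, edgeR adjusted p = 2.71e-13). The change was 0.35 (SE 0.559, edgeR adjusted p = 0.997).

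Srxn1, which encodes sulfiredoxin, the enzyme that reactivates overoxidised peroxiredoxins and a classic target of the antioxidant factor NRF2, separated the vectors at every time. Srxn1 (ENSMUSG00000032802, GRCm38 chromosome 2, 152105516 to 152111376, plus strand) was at 356 and 341 CPM at 0 h, 345 and 342 CPM at 0.5 h, 434 and 450 CPM at 1 h, and 746 and 732 CPM at 2 h in Rhox10 libraries. The Ctrl libraries gave 193 and 184, 183 and 179, 244 and 230, and 295 and 293 CPM at these times. Both vectors rose after 0.5 h and the groups never overlapped, so most of the separation was there at 0 h and it widened at 2 h. The early difference was 1.05 (SE 0.0337, edgeR adjusted p = 3.28e-16) and the difference at 0 h was 0.89. The change at 0.5 h and at 1 h was 0.04 and 0.01, and at 2 h it was 0.44 (SE 0.0818, edgeR adjusted p = 0.0225). This call was lost under 7 of 18 alternatives, with edgeR adjusted p-values from 7.3e-06 to 0.187, namely in the fit of only the 16 libraries of 0 to 2 h and without Ctrl replicate 1 at 0 h, Rhox10 replicate 2 at 0 h or any 1 of the 4 libraries of 2 h. Averaged over the 3 times the change was 0.16 (edgeR adjusted p = 0.824).

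The start of Srxn1 lies inside a RHOX10 CUT&Tag peak that the authors annotated as promoter at chr2:152105154-152105781, and the 300 bases around the start site (250 before and 50 after) are shown because the peak covers all of them. The sequence is that of RefSeq on GRCm38.p6, plus strand, chr2:152105274-152105573. Capitals mark matches on either strand to an AP-1 site (TGANTCA), a cAMP response element (TGACGTCA) or an antioxidant response element (TGACNNNGC).
Srxn1: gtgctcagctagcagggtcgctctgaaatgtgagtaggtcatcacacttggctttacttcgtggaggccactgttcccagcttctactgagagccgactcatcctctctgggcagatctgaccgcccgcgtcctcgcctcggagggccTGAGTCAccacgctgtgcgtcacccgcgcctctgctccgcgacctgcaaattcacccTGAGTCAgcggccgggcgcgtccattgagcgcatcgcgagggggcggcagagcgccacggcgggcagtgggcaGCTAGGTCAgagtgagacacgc

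The window held AP-1 matches at -102 and -45 and an antioxidant response element match at 29, counted from the start site. Of 32851 promoters of this length, 7.81% held an AP-1 match, 1.79% a cAMP response element and 12.4% an antioxidant response element. An AP-1 match that reads TGACTCA and is followed by GC is also an antioxidant response element match, so these motifs can overlap. The homeodomain core TAAT, present in 58.0% of promoters, was not found in this window.

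Bmp2 encodes a bone morphogenetic protein, a secreted ligand that signals through SMAD proteins. Bmp2 (ENSMUSG00000027358, GRCm38 chromosome 2, 133552159 to 133562885, plus strand) was at 167 and 174 CPM at 0 h, 183 and 178 CPM at 0.5 h, 204 and 192 CPM at 1 h, and 266 and 284 CPM at 2 h in Rhox10 libraries. Ctrl libraries stayed between 52.6 and 68.9 CPM throughout. The early difference was 1.80 (SE 0.0544, edgeR adjusted p = 1.74e-16), against 1.5 at 0 h. The change at 2 h was 0.54 (SE 0.130, edgeR adjusted p = 0.155), and without Ctrl replicate 2 at 0.5 h it was 0.54 with an adjusted p of 0.00122. No RHOX10 peak was annotated to Bmp2. Of 26 measured BMP ligands, receptors and SMAD targets, 8 were called higher and 4 lower in the early difference, with a median of 0.08. Over all genes 14.7% were called higher and 13.6% lower in it, with a median of 0.000583, so the share of the list called lower was close to that of all genes. Those higher included the receptors Bmpr2 (0.49) and Acvr1, and the target Id2 (0.72), an inhibitor of helix-loop-helix factors. Those lower included the ligand Bmp7 (-0.21), the inhibitory Smad6 (-0.43) and the target Id1 (-0.40). None of the 26 was called for a change at 2 h with all libraries, where 0.111% of all genes were. Bmp2 was called higher and Id3 and Grem1 lower without Ctrl replicate 2 at 0.5 h.

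**Figure D1:**
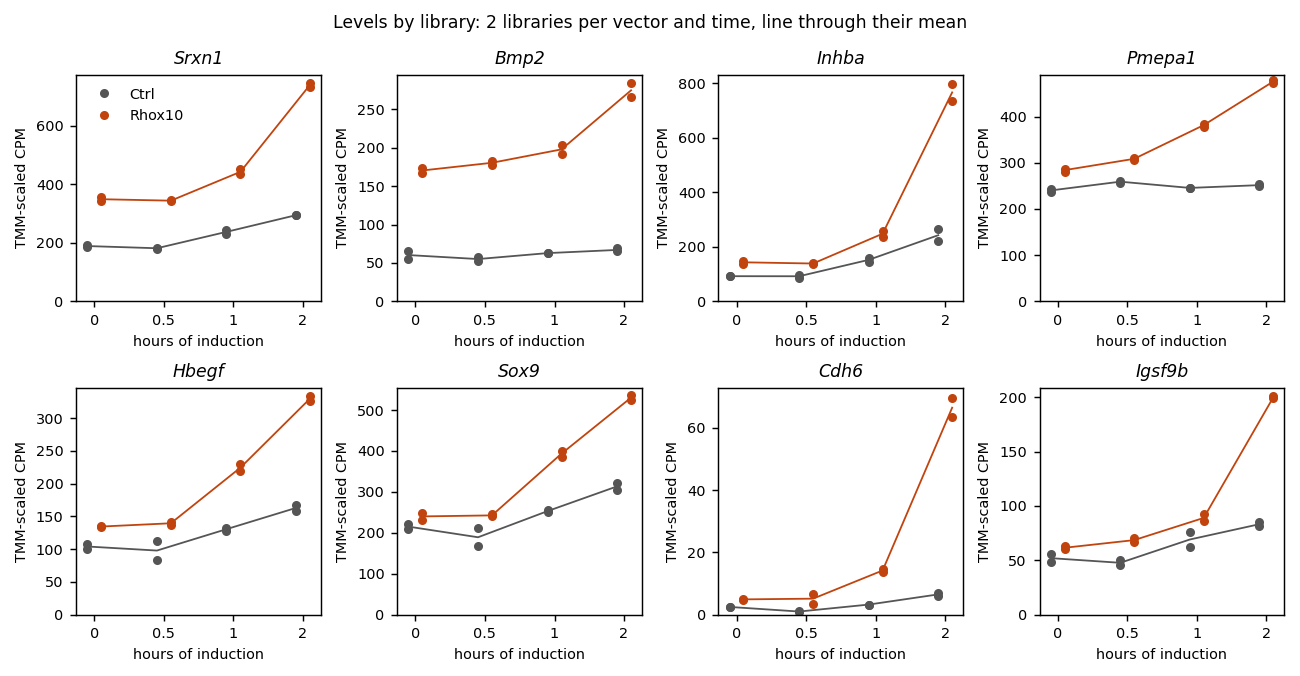
Level in TMM-scaled CPM (linear axes from 0) against hours of induction (0, 0.5, 1 and 2 h, evenly spaced) for 8 genes in Rhox10 and Ctrl libraries; points are the 2 libraries of a group and lines join their means. Srxn1 and Bmp2 are separated from 0 h on, while Cdh6 rises from 5.09 and 4.65 CPM at 0 h to 63.5 and 69.4 CPM at 2 h in Rhox10 libraries.

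The early difference called 5847 of 20642 genes (28.3%), 3031 higher (14.7%) and 2816 lower (13.6%) in Rhox10 libraries. In 2596 genes (12.6%) the 6 Rhox10 libraries did not overlap the 6 Ctrl libraries, 1441 above (6.98%) and 1155 below (5.6%). At 0 h, before induction and in other libraries, 2246 genes (10.9%) were called, 1354 higher (6.56%) and 892 lower (4.32%). Of those, 1980 were also called in the early difference, which is 88.2% of the genes called at 0 h and 33.9% of those called early. The sign agreed for 1977 of them and was opposite for 3. The change from 0 h, averaged over 0.5, 1 and 2 h, called 0 genes in edgeR (0% of genes tested). An unadjusted p under 0.05, which chance alone gives in a share of about 0.05 of genes, was found for 1188 (5.76%). DESeq2 called 5 genes and limma-voom 1 in the same contrast.

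The edgeR count of 0 depended on the library that stood apart, and also on the tool, the filter and other libraries. Without Ctrl replicate 2 at 0.5 h, 21 genes were called for the averaged change (0.0947% of 22173 tested), 11 higher (0.0496%) and 10 lower (0.0451%). The common dispersion was 0.0166 with that library and 0.00749 without it. Among the 11 that were higher were Hbegf (0.48, SE 0.0791), Pmepa1 (0.36, SE 0.0605), Sox9 (0.37, SE 0.0631) and Cdh6 (1.66, SE 0.358). The 10 that were lower included Fos (-0.68, SE 0.0855), Jun (-0.49, SE 0.0892), Dusp1 (-0.41, SE 0.0815), Nfkbia (-0.25, SE 0.0473) and Zfp36 (-0.49, SE 0.107). Leaving out Ctrl replicate 1 at 0.5 h instead, which makes the library that stood apart the only Ctrl library of that time, gave 641 calls. Leaving out Ctrl replicate 1 at 0 h gave 3 and Rhox10 replicate 2 at 0.5 h gave 1. Averaging 1 and 2 h only, with all libraries kept, called 8 genes, with Pmepa1, Gng11, Zfp469, Spsb1 and Sox9 among the 6 higher, and Fos and Jun lower.

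By time point, the change from 0 h called 0 genes at 0.5 h, 0 at 1 h and 23 at 2 h (0.111%), of which 14 were higher (0.0678%) and 9 lower (0.0436%). At 0.5 h and 1 h, 1336 (6.47%) and 954 genes (4.62%) had an unadjusted p under 0.05. Chance alone gives such a p in a share of about 0.05 of genes. DESeq2 called 0 genes at both times and 45 at 2 h. Without Ctrl replicate 2 at 0.5 h the counts were 2 (0.00902%), 14 (0.0631%) and 88 (0.397%; 48 higher, 0.216%, and 40 lower, 0.18%), and all 23 genes were among the 88. A test of whether the difference varied among 0.5, 1 and 2 h called 20 genes (0.0969%), and 69 (0.311%) without that library. Without its partner, Ctrl replicate 1, the counts were 2757 for the change at 0.5 h and 3033 for variation among times. Without Ctrl replicate 1 at 0 h, 2 genes were called at 0.5 h and 2 at 1 h, and without any 1 library of 2 h the variation test called 12 or 13. The genes described next were named after their values were seen, apart from Rhox10, Srxn1, Bmp2 and the genes with the firmest early difference.

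The 9 genes that fell at 2 h were Fos, Jun, Egr1, Nr4a2, Btg2, Dusp1, Phlda1, Nfkbia and Nfkbiz. Jun (GRCm38 chromosome 4, 95049034 to 95052222, minus strand) encodes a subunit of the AP-1 transcription factor. In Rhox10 libraries it was at 230 and 218 CPM at 0 h, 230 and 241 CPM at 0.5 h, 193 and 184 CPM at 1 h, and 64.3 and 64.0 CPM at 2 h. The Ctrl libraries gave 88.7 and 92.2, 87.1 and 70.2, 82.7 and 82.9, and 73.8 and 70.0 CPM. Rhox10 libraries were above Ctrl up to 1 h and just below it at 2 h. The difference was 1.31 at 0 h and -0.16 at 2 h, a change of -1.47 (SE 0.133, edgeR adjusted p = 3.12e-06).

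Fos, the AP-1 partner of Jun, fell in both vectors and further in Rhox10. It was at 249 and 261 CPM at 0 h, 223 and 223 CPM at 0.5 h, 132 and 126 CPM at 1 h, and 43.7 and 46.6 CPM at 2 h in Rhox10 libraries. Ctrl libraries gave 190 and 192, 190 and 149, 155 and 139, and 75.8 and 83.7 CPM. The order of the vectors thus turned between 0.5 and 1 h, and at 1 and 2 h the Rhox10 libraries lay below the Ctrl libraries. The change was -0.02 at 0.5 h, -0.61 at 1 h (SE 0.136, edgeR adjusted p = 0.48) and -1.24 at 2 h (SE 0.139, edgeR adjusted p = 8.54e-05). Without Ctrl replicate 2 at 0.5 h the change at 1 h had an adjusted p of 0.00133.

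Egr1, a zinc finger factor induced by growth factor signalling, was somewhat higher in Rhox10 libraries until 1 h. Its levels in Rhox10 libraries were 695 and 683 CPM at 0 h, 725 and 741 CPM at 0.5 h, 780 and 769 CPM at 1 h, and 430 and 413 CPM at 2 h. In Ctrl libraries they were 620 and 614, 606 and 528, 700 and 703, and 624 and 621 CPM. Ctrl libraries stayed between 528 and 703 CPM, and at 2 h the Rhox10 libraries lay below them. The change at 2 h was -0.72 (SE 0.0835, edgeR adjusted p = 9.77e-05). By 8 h the means were 108 CPM in Rhox10 and 202 CPM in Ctrl libraries.

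Of 27 measured immediate-early genes, 0 were called higher and 5 lower in the change at 2 h, against 0.0678% and 0.0436% of all genes. The median of the list was -0.43, against -0.00493 over all genes. The 5 were Fos, Jun, Egr1, Nr4a2 and Btg2. Nr4a2, an orphan nuclear receptor, changed by -0.56 (SE 0.104, edgeR adjusted p = 0.0225), a call lost under 9 of 18 alternatives (edgeR adjusted p from 3.21e-05 to 0.217). Without Ctrl replicate 2 at 0.5 h, 11 were lower, and the others were Fosb, Fosl2, Junb, Ier5, Nr4a1 and Zfp36. Junb shows how that library entered: it was at 135 CPM there and 240 CPM in its partner, and the adjusted p of its change at 2 h of -0.61 was 0.602 with it and 3.35e-07 without it. In the early difference, 17 of the 27 were called higher and 3 lower, against 14.7% and 13.6% of all genes. The summed level of the list was 5290 to 5400 CPM at 0 h and 3680 to 5420 CPM over the early Rhox10 libraries, against 3380 to 3500 CPM and 2950 to 3730 CPM in Ctrl.

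Dusp1 encodes a phosphatase that inactivates MAP kinases, and Btg2 an antiproliferative factor and p53 target. Dusp1 (GRCm38 chromosome 17, 26505590 to 26562128, minus strand) was at 241 and 258 CPM at 0 h, 246 and 253 CPM at 0.5 h, 215 and 216 CPM at 1 h, and 82.6 and 82.0 CPM at 2 h in Rhox10 libraries. In Ctrl libraries it was at 168 and 173, 167 and 115, 161 and 155, and 120 and 129 CPM. It was above Ctrl up to 1 h and below it at 2 h, a change of -1.15 (SE 0.165, edgeR adjusted p = 0.00114). Btg2 (GRCm38 chromosome 1, 134075170 to 134079120, minus strand) went from 273 and 256 CPM at 0 h, 246 and 265 CPM at 0.5 h, and 287 and 276 CPM at 1 h to 132 and 117 CPM at 2 h. Ctrl libraries ran from 124 to 167 CPM, and at 2 h the groups overlapped. Its change was -0.95 (SE 0.146, edgeR adjusted p = 0.00221).

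The promoters of Dusp1 and Btg2 are shown because both fell together and a RHOX10 peak covered all 300 bases of each. They are from RefSeq on GRCm38.p6, minus strand, at chr17:26508423-26508722 and chr1:134079106-134079405, with capitals as for Srxn1.
Dusp1: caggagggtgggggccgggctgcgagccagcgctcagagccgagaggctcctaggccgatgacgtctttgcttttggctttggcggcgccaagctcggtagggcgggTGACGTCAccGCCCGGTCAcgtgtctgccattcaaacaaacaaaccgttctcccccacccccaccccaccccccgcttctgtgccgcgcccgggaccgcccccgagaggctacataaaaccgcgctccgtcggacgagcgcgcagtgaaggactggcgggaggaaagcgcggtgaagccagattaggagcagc
Btg2: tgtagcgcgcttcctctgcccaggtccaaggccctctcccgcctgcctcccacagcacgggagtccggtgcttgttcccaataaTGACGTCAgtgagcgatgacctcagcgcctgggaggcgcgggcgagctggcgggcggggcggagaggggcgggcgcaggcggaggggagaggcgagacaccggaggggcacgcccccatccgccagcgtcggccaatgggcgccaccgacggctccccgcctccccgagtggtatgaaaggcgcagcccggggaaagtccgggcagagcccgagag

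Each held a full cAMP response element, at -143 in Dusp1 and -166 in Btg2. The promoters of Jun and Fos, which also fell and are not shown, held no match to any of the marked motifs, and no peak overlapped them. Dusp1 also held an antioxidant response element match at -133. The homeodomain core was found at 39 in Dusp1 and at -169 in Btg2, where its last base is the first of the cAMP response element. Of the 23 genes called at 2 h, 12 had a promoter in the RefSeq table. Among them 2 held an AP-1 match (Gfpt2 and Srxn1), 2 a cAMP response element, 4 an antioxidant response element and 6 a homeodomain core, while the CArG box, found in 1.63% of promoters, was in 0.

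The other genes that fell at 2 h were inhibitors and modulators of NF-kB, and Phlda1. Nfkbia, the inhibitor that holds NF-kB in the cytoplasm, was at 980 and 958 CPM at 0 h and 638 and 625 CPM at 2 h in Rhox10 libraries. In Ctrl libraries it was at 783 and 739 CPM and then at 780 and 752 CPM. It changed by -0.63 (SE 0.0880, edgeR adjusted p = 0.00105). Nfkbiz, a nuclear cofactor of NF-kB, went from 176 and 185 CPM at 0 h and 227 and 216 CPM at 1 h to 80.2 and 80.0 CPM at 2 h, while Ctrl libraries ran from 56.8 to 80.4 CPM. Its change at 2 h was -1.03 (SE 0.146, edgeR adjusted p = 0.0011). Of 12 measured NF-kB target genes, 1 was called lower in the change at 2 h, Nfkbia, against 0.0436% of all genes. The change was below 0 in 8 of the 12, with a median of -0.49 against -0.00493 over all genes. Without Ctrl replicate 2 at 0.5 h, Cxcl1 was called lower as well, where 0.18% of all genes were. Phlda1, of the pleckstrin homology-like domain family, was at 547 and 563 CPM at 0 h and 357 and 381 CPM at 2 h in Rhox10 libraries. It was at 225 to 272 CPM in Ctrl libraries, with a change of -0.66 (SE 0.103, edgeR adjusted p = 0.00225). Unlike Jun and Fos, Phlda1 stayed above Ctrl at 2 h.

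**Figure D2:**
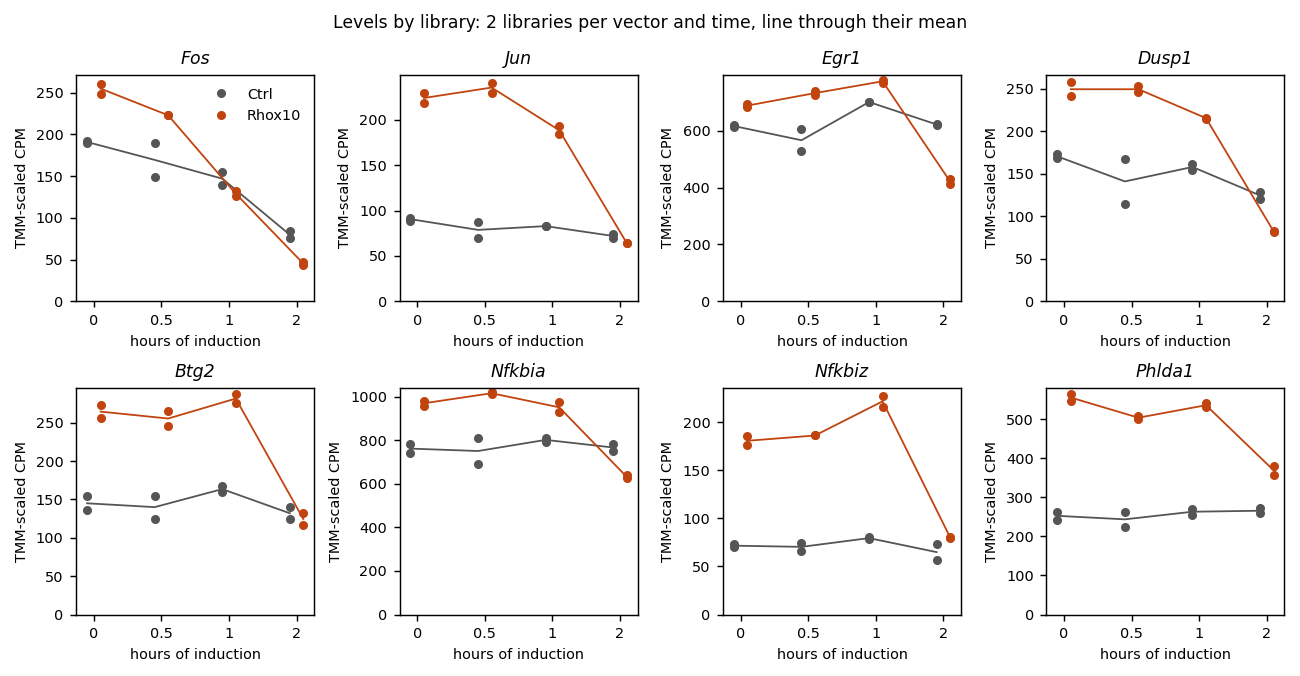
Level in TMM-scaled CPM (linear axes from 0) against hours of induction for 8 genes that fell at 2 h; points are the 2 libraries of a group and lines join their means. Jun in Rhox10 libraries drops from 193 and 184 CPM at 1 h to 64.3 and 64.0 CPM at 2 h, and at 0.5 h the lower Ctrl point of each gene is replicate 2, which stood apart.

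The 14 genes that rose at 2 h included a gene for a secreted signal and a regulator of SMAD signalling. Inhba, the subunit of activin A, was at 138 and 148 CPM at 0 h, 142 and 135 CPM at 0.5 h, 259 and 237 CPM at 1 h, and 797 and 737 CPM at 2 h in Rhox10 libraries. Ctrl libraries also rose, through 93.1 and 90.9, 98.1 and 85.4, and 160 and 144 CPM to 221 and 264 CPM. The groups were apart at each time and the gap widened at 2 h, with a change of 1.02 (SE 0.131, edgeR adjusted p = 0.000331). Pmepa1, a membrane protein that limits SMAD signalling and is itself induced by TGF-beta, was at 287 and 281 CPM at 0 h, 310 and 307 CPM at 0.5 h, 385 and 378 CPM at 1 h, and 479 and 473 CPM at 2 h. In Ctrl libraries it stayed at 237 to 261 CPM. Its change was 0.01 at 0.5 h, 0.39 at 1 h and 0.67 at 2 h (SE 0.0859, edgeR adjusted p = 0.000331). Spsb1, an adaptor of an E3 ubiquitin ligase, was at 48.2 and 39.1 CPM at 0 h and 96.9 and 99.2 CPM at 2 h, while Ctrl libraries held at 27.2 to 34.6 CPM. It changed by 1.19 (SE 0.184, edgeR adjusted p = 0.00225).

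Hbegf, an EGF-family ligand, showed the same course below the threshold. It was at 134 and 135 CPM at 0 h, 137 and 142 CPM at 0.5 h, 219 and 230 CPM at 1 h, and 334 and 326 CPM at 2 h in Rhox10 libraries, and at 100 and 108 CPM at 0 h and 159 and 167 CPM at 2 h in Ctrl libraries. Its change at 2 h was 0.65 (SE 0.134, edgeR adjusted p = 0.0558), and 1.07e-06 without Ctrl replicate 2 at 0.5 h. Il11, a cytokine of the interleukin-6 family, was at 26.3 and 23.6 CPM at 0 h and 118 and 108 CPM at 2 h in Rhox10 libraries, with 8.26 and 7.20 CPM and then 21 and 19.2 CPM in Ctrl libraries. Its change at 2 h was 0.80 (edgeR adjusted p = 0.113), and the test of variation among the early times called it (edgeR adjusted p = 0.00188).

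Jag1, a Notch ligand, was at 24.5 and 22.1 CPM at 0 h, 25.3 and 28.6 CPM at 0.5 h, 34.1 and 34.6 CPM at 1 h, and 100 and 98.4 CPM at 2 h in Rhox10 libraries. Ctrl libraries gave 28.0 and 22.8, 29.3 and 16.1, 32.6 and 34.3, and 43.5 and 43.3 CPM. The vectors overlapped at 0, 0.5 and 1 h and were apart at 2 h, with a change of 1.32 (SE 0.247, edgeR adjusted p = 0.024) that lost its call under 8 of 18 alternatives (edgeR adjusted p from 1.59e-07 to 0.164). At 8 h the means were 26.4 CPM in Rhox10 and 75.1 CPM in Ctrl libraries. Hes1, a transcriptional repressor that Notch signalling induces, was at 453 and 502 CPM at 0 h and 231 and 227 CPM at 2 h in Rhox10 libraries, against 355 and 353 CPM and then 252 and 271 CPM in Ctrl. Its change at 2 h of -0.62 had an edgeR adjusted p of 0.847 with all libraries and 2e-08 without Ctrl replicate 2 at 0.5 h, in which Hes1 was at 132 CPM.

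Among the 14 genes called higher at 2 h with all 24 libraries, Cdh6, a type II cadherin, had the largest change. It was at 5.09 and 4.65 CPM at 0 h, 6.74 and 3.46 CPM at 0.5 h, 14.5 and 13.8 CPM at 1 h, and 63.5 and 69.4 CPM at 2 h in Rhox10 libraries. Ctrl libraries gave 2.40 and 2.49, 0.908 and 1.02, 3.22 and 3.18, and 6.85 and 6.10 CPM. Every Rhox10 library lay above the Ctrl libraries of its time, and the change at 2 h was 2.36 (SE 0.357, edgeR adjusted p = 0.00219). Prg4, a lubricating proteoglycan, changed by 1.40 (SE 0.278), and Zfp469, a zinc finger protein linked to collagen fibrils, by 1.79 (SE 0.289). Igsf9b, an immunoglobulin-family adhesion molecule, was at 60.1 and 62.9 CPM at 0 h and 201 and 199 CPM at 2 h, against 55.4 and 48.5 CPM and then 85.2 and 81.2 CPM in Ctrl libraries, a change of 1.02 (SE 0.144, edgeR adjusted p = 0.00105). Gng11, a G-protein gamma subunit, went from 26.2 and 26.2 CPM to 46.3 and 45.7 CPM in Rhox10 libraries while Ctrl went from 21.5 and 21.4 CPM to 14.2 and 16.6 CPM, a change of 1.29 (SE 0.196). Prag1, a pseudokinase, changed by 1.23 (SE 0.236) and Gfpt2, an enzyme of the hexosamine pathway, by 1.08 (SE 0.215). Of 18 alternatives, the call of Prg4 was lost under 10 (edgeR adjusted p up to 0.282), those of Prag1 and Gfpt2 under 8 each (up to 0.23 and 0.463), and that of Zfp469 under 1, without Ctrl replicate 2 at 2 h (0.0571).

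Sox9, a transcription factor that also marks Sertoli cells, was at 249 and 231 CPM at 0 h, 245 and 240 CPM at 0.5 h, 386 and 401 CPM at 1 h, and 525 and 536 CPM at 2 h in Rhox10 libraries. In Ctrl libraries it was at 222 and 208, 211 and 167, 255 and 251, and 305 and 322 CPM. Both vectors rose, Rhox10 more, with a change of 0.60 at 2 h (SE 0.115, edgeR adjusted p = 0.0297), a call lost under 7 of 18 alternatives (edgeR adjusted p from 3.17e-08 to 0.223). For Sox9, Srxn1, Nr4a2, Jag1, Prg4, Prag1 and Gfpt2 most of the alternatives without the call left out 1 library of 0 or 2 h, and the fit of only the 16 libraries of 0 to 2 h lost it for each. Of 7 measured Sertoli cell markers it alone was called at 2 h, against 0.111% of all genes. Their summed level was 266 to 569 CPM in the early Rhox10 libraries and 192 to 356 CPM in the early Ctrl libraries. Most of that sum was Sox9 itself, at 240 to 536 CPM and 167 to 322 CPM in these libraries. The sum is thus no separate reading of Sertoli cells. Amh had no counts, and the part of Sertoli cells in this result was not tested. By 8 h Sox9 had turned, at 226 CPM in Rhox10 and 408 CPM in Ctrl libraries on average.

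Of 21 measured sterol synthesis genes, 2 were called higher and 5 lower in the early difference, against 14.7% and 13.6% of all genes, with a median of -0.08. The change at 2 h was above 0 in 19 of the 21, with a median of 0.38 against -0.00493 over all genes. In Rhox10 libraries alone, 20 of the 21 lay above 0 h over the early times, with a median of 0.26, and in Ctrl libraries 15 did, with a median of 0.05. Hmgcs1, an early enzyme of cholesterol synthesis, was at 200 and 198 CPM at 0 h and 290 and 308 CPM at 2 h in Rhox10 libraries, and at 267 and 277 CPM and then 315 and 300 CPM in Ctrl libraries. The groups were apart at 0 h and overlapped at 2 h. Its change at 2 h was 0.41 (edgeR adjusted p = 0.127), and 0.000838 without Ctrl replicate 2 at 0.5 h. Sqle and Msmo1, later enzymes of the same pathway, were also called higher at 2 h with that library left out.

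**Figure D3:**
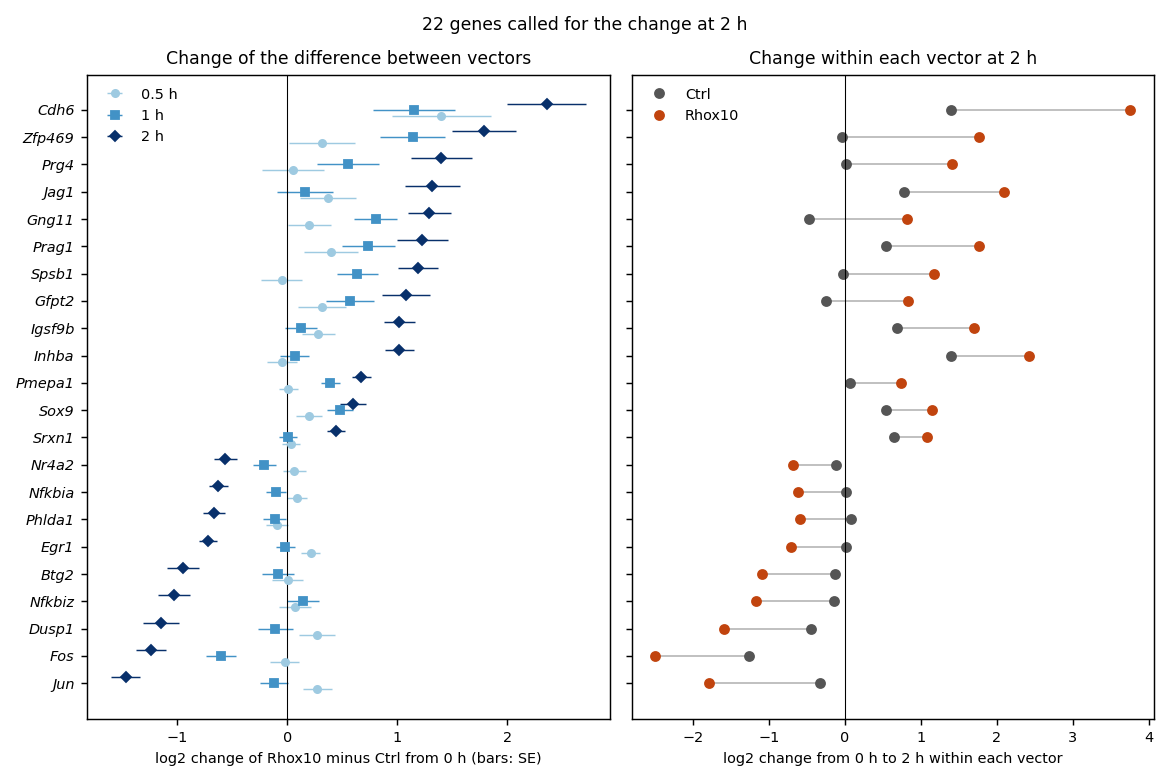
Left, log2 change of the Rhox10 minus Ctrl difference from 0 h at 0.5, 1 and 2 h for 22 of the 23 genes called at 2 h (bars are SE; the 3 times share the 0 h libraries). Right, log2 change from 0 h to 2 h within each vector; the 9 genes that fell lie between -2.50 and -0.59 in Rhox10 libraries and the 13 shown that rose between 0.74 and 3.76.

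Levels also differed from 0 h within each vector. Averaged over 0.5, 1 and 2 h, 129 genes (0.625%) were called against 0 h in Rhox10 libraries, 94 higher (0.455%) and 35 lower (0.17%). In Ctrl libraries 94 genes (0.455%) were called, 75 higher (0.363%) and 19 lower (0.092%). Without Ctrl replicate 2 at 0.5 h these counts were 788 (3.55%) and 491 (2.21%), and without Ctrl replicate 1 at 0.5 h the Ctrl count was 2134. Leaving out a 0 h library gave 44 (replicate 1) or 28 (replicate 2) in Rhox10 and 14 or 8 in Ctrl. Leaving out any other library of the vector lowered the Rhox10 count to as few as 74 and the Ctrl count to as few as 45. The vectors share no library, and 35 genes were called in both, which is 27.1% of the Rhox10 calls and 37.2% of the Ctrl calls, all 35 with the same sign. They included Fos (-1.23 in Rhox10 and -0.60 in Ctrl), Inhba (1.05 and 0.70), Srxn1 (0.47 and 0.31), Has2, which makes hyaluronan (1.91 and 1.20), Dusp5, an ERK phosphatase (0.65 and 0.38), and Ndrg1 (0.74 and 0.92). The genes that fell at 2 h moved by -1.26 to 0.07 in Ctrl and by -2.50 to -0.59 in Rhox10 libraries over those 2 h.

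The early differences were then grouped by list, and each count is to be read against the 14.7% of all genes called higher and the 13.6% called lower, with a median of 0.000583. Of 28 measured NRF2 antioxidant genes, 20 were called higher and 0 lower in the early difference, with a median of 0.50. Nqo1, a quinone reductase, was at 44.7 and 44.9 CPM in Rhox10 and 17.0 and 18.0 CPM in Ctrl libraries at 0 h, and at 48.2 to 56.7 CPM and 12.3 to 20 CPM early. Hmox1, heme oxygenase, was at 170 to 201 CPM against 85.3 to 104 CPM at 0 h and 182 to 242 CPM against 101 to 111 CPM early. The groups overlapped for neither gene. Nqo1 differed by 1.62 early and 1.36 at 0 h, Hmox1 by 0.99 and 0.97, and Slc7a11, the cystine transporter, by 1.69 and 2.00. Gclm, a subunit of the glutathione-making enzyme, and Keap1, the inhibitor of NRF2, differed by 0.07 and 0.08 and were not called, though Keap1 was called without Ctrl replicate 2 at 0.5 h, as were 28.2% of genes. Srxn1 was the 1 of the 28 called for a change at 2 h, against 0.111% of all genes. The median change of the list was 0.04.

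Of 24 measured p53 target genes, 16 were called higher and 0 lower in the early difference, with a median of 0.52, where 14.7% and 13.6% of all genes were called. Cdkn1a, the cell cycle inhibitor p21, was at 990 to 1170 CPM in early Rhox10 libraries and 498 to 605 CPM in early Ctrl libraries. It differed by 0.93 (SE 0.0290, edgeR adjusted p = 2.52e-16) and by 0.93 at 0 h. Mdm2, the ubiquitin ligase of p53, differed by 0.73, and Ccng1, a cyclin G, by 0.80. In the change at 2 h, Btg2 was the 1 gene of the list called lower, against 0.0436% of all genes. That change was below 0 in 15 of the 24, with a median of -0.08 against -0.00493 over all genes. Mdm2, Bbc3 and Plk2 were called lower as well without Ctrl replicate 2 at 0.5 h, where 0.18% of all genes were. Of 18 integrated stress and unfolded protein response genes, 9 were called higher and 0 lower early (median 0.30), and 0 were called for a change at 2 h. Over all genes 0.111% were called for that change, so 0 is a usual count for this list and the next. Of 30 interferon-stimulated genes, 8 were called higher and 5 lower early (median 0.14), the lower share being near that of all genes, and 0 were called for a change at 2 h (1, Ifih1, without Ctrl replicate 2 at 0.5 h). S100a6, a calcium-binding protein common in fibroblasts, differed by 0.79 early (SE 0.0231) and 0.76 at 0 h, at 3290 to 3500 CPM in early Rhox10 and 1920 to 2080 CPM in early Ctrl libraries.

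Spermatogonial stem cell genes lay lower in Rhox10 libraries. Of 24 measured, 0 were called higher and 18 lower in the early difference, against 14.7% and 13.6% of all genes, with a median of -0.42. Gfra1, the co-receptor for the niche factor GDNF, was at 27.4 and 32.4 CPM in Rhox10 and 45.2 and 46.9 CPM in Ctrl libraries at 0 h, and at 22.5 to 32.7 CPM and 41.0 to 47.9 CPM early. It differed by -0.70 (SE 0.0763, edgeR adjusted p = 2.35e-07), and its partner Ret by -0.28. Lhx1, a homeobox gene of the GDNF response, differed by -0.75 early and -0.75 at 0 h, and Nanos2, an RNA-binding protein that keeps stem cells undifferentiated, by -0.91 and -1.46. Zbtb16, the zinc finger factor PLZF, differed by -0.26. At 2 h 0 of the 24 were called for a change, and the median was 0.01. Over all genes 0.111% were called for that change, so 0 is a usual count for a list of this size. Among 16 measured differentiation genes, 5 were called higher and 4 lower early (median -0.08), so the list was split. The higher ones were Kit, Stra8, Rarg, Cyp26b1 and Crabp1, and the lower ones Sohlh1, Dnmt3b, Ccnd2 and Rec8. Kit, the receptor that marks differentiating spermatogonia, was at 44.8 to 56.6 CPM in early Rhox10 and 19.8 to 42.7 CPM in early Ctrl libraries, a difference of 0.48. Of 11 germ cell markers, 9 were called lower and 0 higher early (median -0.33), and of 12 fibroblast and feeder cell markers 7 were higher and 1 lower (median 0.29). These marker levels moved with the lists above, and their part was not tested. The germ cell and stem cell lists share members, among them Zbtb16, Sall4 and Nanos3, so they are not separate readings.

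The firmest lower differences that did not overlap were Snord13, Elavl2, Esrp1 and Gm2986. Elavl2, an RNA-binding protein, was at 226 to 250 CPM in early Rhox10 and 341 to 401 CPM in early Ctrl libraries, a difference of -0.59 (SE 0.0361, edgeR adjusted p = 1.8e-11) and of -0.63 at 0 h. By 8 h both vectors averaged 325 CPM. Esrp1, an epithelial splicing regulator, was at 110 to 132 CPM against 184 to 221 CPM, a difference of -0.75 (SE 0.0462, edgeR adjusted p = 1.83e-11). Snord13, a small nucleolar RNA, differed by -1.30 and Gm2986, a predicted gene, by -1.61. Gm2986 in Rhox10 libraries stayed at 17.5 to 24.1 CPM up to 1 h and was at 59.6 and 51.3 CPM at 2 h. Small RNAs and predicted genes can share reads with other copies, so both are uncertain.

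**Figure D4:**
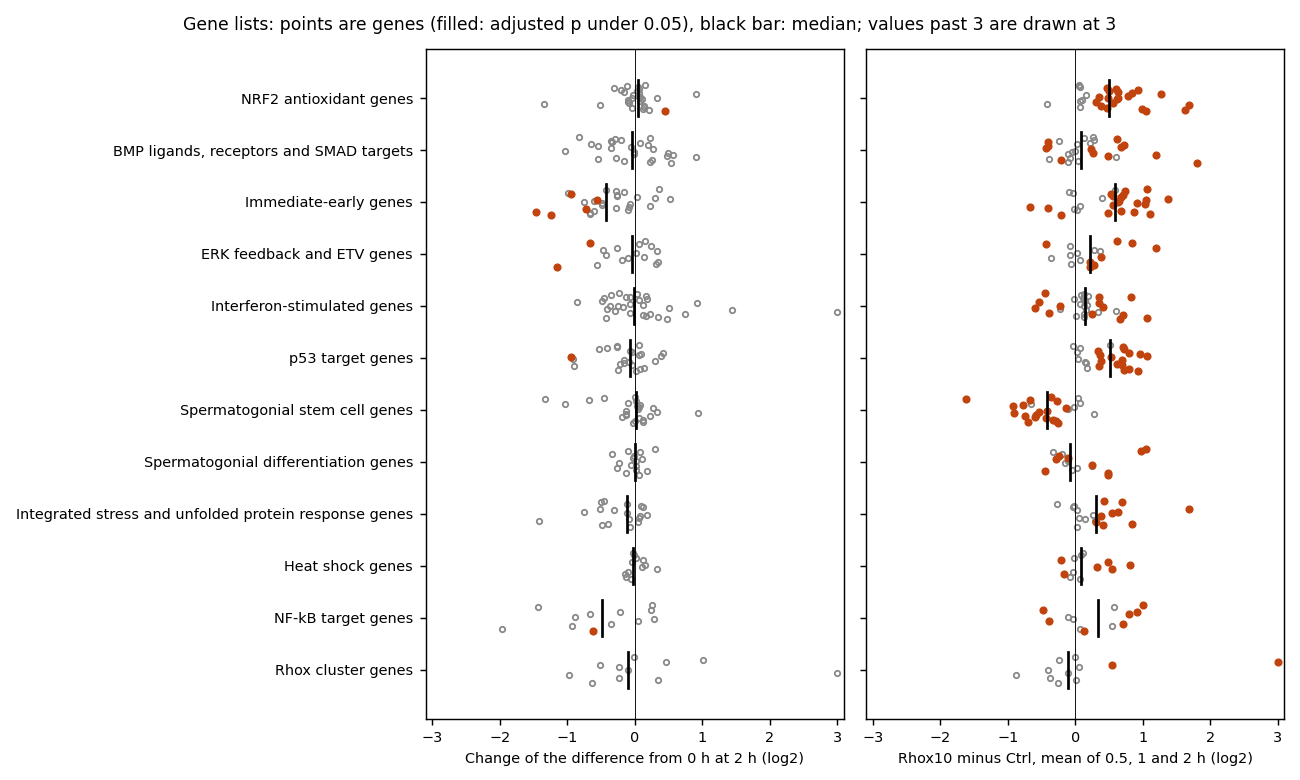
Genes of 12 lists as points (filled where called), black bars at the list median, on a log2 axis cut at 3; left, change of the difference from 0 h at 2 h, and right, the early difference. The immediate-early list sits left of 0 in the change (median -0.43) and right of 0 in the early difference (median 0.59), while the NRF2 list is shifted in the early difference (median 0.50) and centred near 0 in the change (median 0.04).

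RHOX10 binding was read from the authors' deposited list of 5147 CUT&Tag peaks, and a gene was linked when a peak was annotated to it within 3 kb of its start. Of the 23 genes called at 2 h, 11 were linked (47.8%, 95% Wilson interval 29.2 to 67.0). The share was 20.1% of all genes tested, 29.9% of those of at least 5 CPM and 26.8% of those called in the early difference. Linked genes that fell were Dusp1, Btg2, Nfkbiz and Nr4a2. Those that rose were Srxn1, Pmepa1, Jag1, Sox9, Cdh6, Prag1 and Gfpt2. No peak was linked to Jun, Egr1 or Inhba, and the peak nearest to Fos lay 12143 bases away. With peaks at or above the median score of 128, the shares were 17.4% (interval 6.98 to 37.1) of the 23 genes, 11.4% of all and 18.0% of those of at least 5 CPM.

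The RNA-seq of germ cells sorted for an Oct4-driven reporter gave a second reading, with 4 libraries labelled wild-type and 4 labelled knockout, each a pool of testes from 3 animals. Rhox10 itself had 3 to 10 counts in the wild-type and 4 to 11 in the knockout libraries, so the counts do not verify these labels. Of the 23 genes, 19 were tested there, and 12 were higher and 0 lower in the libraries labelled knockout, where 37.5% of the 13538 genes tested were called, 18.6% higher and 18.9% lower. With library totals as the only scaling, the split over all genes moved from 2518 higher and 2553 lower to 7229 and 629, with the median gene shifted by 0.347, and 19 of the 19 were then higher. DESeq2 called 10 of the 19 higher. The 12 held genes that fell after induction, among them Jun (0.31, SE 0.0456), Fos (0.29, SE 0.0438), Nfkbiz (0.61, SE 0.0952) and Btg2 (0.34, SE 0.0556), and genes that rose, among them Inhba (0.74, SE 0.0809), Jag1 (0.45, SE 0.122) and Srxn1 (1.10, SE 0.295). Srxn1 was low in these cells, with 1.21 ± 0.455 CPM in the wild-type group and 2.57 ± 0.685 CPM in the knockout group (mean ± SD, n = 4 each). Counts of Bmp2, Cdh6, Gng11, Zfp469 and Prg4 were too low there to be tested.

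Exons of Jun, Dusp1, Phlda1, Spsb1, Prg4, Zfp36, Cdkn1a, Esrp1 and Atf7ip overlap exons of a gene on the opposite strand in GENCODE M21. The strand setting of the counting is not given in the sources used here, so reads of these pairs may have been combined or split.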

How the data were processed

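The series holds 24 iSLAM-seq, 8 RNA-seq and 9 CUT&Tag samples. The deposited iSLAM-seq table gives raw counts per gene from 3′-end libraries. The submitters' processing notes name limma 3.42.2 and mm10 for it and STAR 2.5.2b, Subread, featureCounts, DESeq2 and GRCm38 for RNA-seq. The aligner of the iSLAM-seq reads, the strand setting, and whether all reads or only T-to-C converted reads were counted are not given in the sources used here, so counts are read as levels and not as synthesis. Peak scores and distances to a start site are the authors' deposited values, on a score scale that is not stated.

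Genes were tested with edgeR 4.0.16 (quasi-likelihood, TMM scaling, filterByExpr, Benjamini-Hochberg adjustment) in R 4.3.3, with 1 mean for each of 12 groups over all 24 libraries. Alternatives used DESeq2 1.42.0 and limma 3.58.1 (voom). SE is the log2 value divided by the square root of its F statistic. Of 55536 gene IDs, 55450 matched GENCODE M21 with equal start and end. Promoters came from RefSeq, for 25 of 41 named genes. Intervals used SciPy 1.17.1 and cover counting error only. The test scripts were run on simulated counts before use.

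A rule named Rhox10, Srxn1, Bmp2, any gene called in the averaged change (0), and, of the genes whose early libraries did not overlap, at most 4 higher and 4 lower with the lowest p in the early difference (S100a6, Bmp2, Cdkn1a and Srxn1 higher; Snord13, Elavl2, Esrp1 and Gm2986 lower). All others were named after their values were seen. Members and lists were chosen with earlier results of these data known. No contrast used the 4 h and 8 h libraries. They entered the gene filter, the scaling, the estimate of the spread, the checks between libraries and the means quoted for 8 h. 1 of the genes called at 2 h is not reported here.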

Additional observations from a re-analysis of the deposited data

Results flagged for a closer look

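The Rhox10 minus Ctrl difference varied among 0.5, 1 and 2 h in 20 genes by the edgeR test, and most of those given here are described above by their values. The adjusted p was 2.91e-07 for Jun, 3.38e-06 for Egr1, 0.0002 for each of Inhba, Nfkbiz and Dusp1, 0.000221 for Fos, 0.00033 for Nfkbia and 0.00112 for Pmepa1. It was 0.00188 for Il11, 0.00284 for Btg2, 0.00444 for Timp1, an inhibitor of matrix metalloproteinases, 0.00606 for Igsf9b and 0.0061 for Spsb1. It was 0.0144 for Phlda1, 0.0253 for Raph1, 0.0254 for Nr4a2, 0.0301 for Srxn1, 0.0332 for Gm2986 and 0.0349 for Fosl2. Of 21 alternatives, the call was lost under 11 for Nr4a2, Gm2986 and Fosl2, 10 for Raph1 and Srxn1, 8 for Phlda1, 5 for Igsf9b, 3 for Spsb1 and 2 for each of Btg2 and Timp1, and under 0 for Jun and Egr1.

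In the RNA-seq, 1 library lay far from the other 3 of its group in 4 of 64 gene groups examined, where chance gives 3.2. The gap to the nearest library, as a share of the range, was 0.84 for S100a6 and 0.833 for Cyp1b1 in wild-type libraries and 0.917 for Jun and 0.865 for Atf7ip in knockout libraries, against a critical value of 0.829.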

How the results depend on the processing

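The averaged change from 0 h called 5 genes with DESeq2, 1 with limma-voom, 7 with no filter on low counts, 8 over 1 and 2 h only, and 1 with a robust spread (added after seeing the data), and leaving out 1 library at a time gave 0 to 641. The early difference called 2359 genes at an absolute log2 difference of at least 0.5, and 4966 to 7619 with 1 library left out. At 0.5 h, 80 genes were called with no filter and 0 to 2757 with 1 library left out. At 1 h these were 3 and 0 to 14. At 2 h, DESeq2 and the unfiltered fit each called 45, and 16 to 88 were called with 1 library left out. Fits without Ctrl replicate 2 at 0.5 h for contrasts that do not use it were added after seeing the data and gave 14 at 1 h, 88 at 2 h and 788 for Rhox10 over time. For Rhox10 libraries against 0 h, the counts were 216 with DESeq2, 230 unfiltered, 56 with only the 16 libraries of 0 to 2 h, 393 without 0.5 h, and 28 to 90 with 1 Rhox10 library left out. For Ctrl libraries they were 167, 258, 20, 247 and 8 to 2134. Variation among times called 37 genes with DESeq2, 155 unfiltered, 10 with 16 libraries, and 12 to 3033 with 1 library left out. The RNA-seq genotype difference called 2980 genes with DESeq2, 7858 with library totals and 4468 to 4687 with 1 library left out. With peaks at or above the median score the linked shares were 17.4% of the genes called at 2 h, 15.2% of those of the early difference and 11.4% of all. Within 1 kb the share of all genes was 19.5%, and at any distance 22% of all and 29.3% of the early difference. The cause of these moves was not tested.

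For single genes, 1411 alternative values kept direction and side of the threshold, 133 no longer passed, 46 newly passed and 0 reversed. A check of pairing between same-numbered replicates of the vectors gave correlations of -0.122 to 0.0851 by time over 12060 genes. These are not correlations of levels, which were 0.971 to 0.991 between the 2 libraries of a group. The check showed no pairing between the vectors at a given time and does not bear on replicate numbers across times. With a replicate block the counts were 0 for the averaged change, 5887 for the early difference, 0 at 0.5 h, 0 at 1 h, 23 at 2 h, 123 for Rhox10 and 95 for Ctrl against 0 h, 21 for variation among times and 5066 for RNA-seq. With 2 libraries a group, genes of a few CPM such as Zfp469 and Prg4 carry SEs above 0.25.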
